A study of Mus musculus with 15 samples.

Results

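The 10 homeostatic astrocyte genes described here were chosen by name: Aqp4, Slc1a2, Slc1a3, Glul, Aldh1l1, Gja1, Gjb6, S100b, Sox9 and Slc4a4. They are 10 of the 36265 genes with values in the substantia nigra of C57Bl/6J mice, the midbrain region that holds the dopamine neurons lost in Parkinson disease. In 3 mice 1 side received an adeno-associated virus (AAV) labelled AAV-hSYN1-miR-181, at 1.65e10 vector genomes. In the GFP set, of 5 mice, 1 side received AAV-hSYN1-GFP at 1e10 vector genomes. The uninjected side of the same animals served as control, and tissue was taken after 3 weeks. This gave 3 injected and 3 uninjected miR-181 libraries, and 4 injected and 5 uninjected GFP libraries; GFP mouse 5 had an uninjected library only. The mice carried no other alteration that the labels name, and ages are not given in the sources used here. The human synapsin promoter (hSYN1) acts mainly in neurons. The RNA came from dissected whole tissue, with no sort of astrocytes.

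Astrocytes are the glial cells that keep the surroundings of neurons constant. They take up glutamate through the transporters GLT-1 (Slc1a2) and GLAST (Slc1a3) and turn it into glutamine with glutamine synthetase (Glul). Connexin 43 (Gja1) and connexin 30 (Gjb6) join them into a network by gap junctions, and the water channel aquaporin-4 (Aqp4) sits in their endfeet on blood vessels. NBCe1 (Slc4a4) moves sodium and bicarbonate, ALDH1L1 is an enzyme of folate metabolism, S100B is a calcium-binding protein and SOX9 is a transcription factor of the astrocyte lineage.

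MicroRNAs of the miR-181 family pair with target transcripts through the seed, bases 2 to 8, mostly in the 3′ untranslated region (UTR). The labels do not say which family member the vector carried. The mature sequences are shown because all 4 share 1 seed, in capitals (RefSeq, GRCm38.p6):
miR-181a-5p: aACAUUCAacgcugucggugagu
miR-181b-5p: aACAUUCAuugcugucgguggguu
miR-181c-5p: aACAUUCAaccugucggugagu
miR-181d-5p: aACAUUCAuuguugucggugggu
A pair of 7-base forms was searched on the transcript strand of the 3′ UTR (the longest annotated one per gene). TGAATGT is the complement of the whole seed, bases 2 to 8. GAATGTA is the complement of bases 2 to 7 followed by an A opposite base 1, and needs no pair at base 8. The 2 forms overlap, and a site with both was counted once, as an 8-base match. At least 1 match of either form occurred in 24.8% of the genes tested in miR-181 mice that had a 3′ UTR. Of the 10 astrocyte genes, 3 had a match and 7 had none. Slc1a2 held 2 matches in its 3′ UTR of 9250 bases, both to the whole seed. Gja1 held 1 in 1720 bases, of the form with the A and without the pair at base 8. Their surroundings on GRCm38, with the match in capitals, are shown so that both forms can be read against the seed:
Slc1a2, chr2:102784222-102784250, plus strand: catcgtagatcTGAATGTccataatgatg
Slc1a2, chr2:102789487-102789515, plus strand: aggaatgggggTGAATGTgtttcctgtta
Gja1, chr10:56389786-56389814, plus strand: tttcttttttaGAATGTAgcagtaatagc
Aqp4 held 1 match, of 8 bases and so of both forms, in 3955 bases. Glul, S100b, Gjb6, Slc1a3, Aldh1l1, Sox9 and Slc4a4 had no such letters in this window, which says nothing about sites elsewhere.

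Abundance was read as TPM, a length-corrected share of all transcripts, divided by a size factor per library. These values keep no depth, so no counting intervals can be given; per library, 15022 to 15563 genes had a value of 1 or more. The miR-181 and GFP sets were prepared, sequenced and normalized separately, so the vector cannot be told apart from its dose, the sequencer and the library set, and levels were not tested across them. GFP mouse 1 stood apart: the sum of 4 pituitary hormone genes reached 2442 in its injected and 49978 in its uninjected library. Where a GFP result changed without a library, this is stated. Fewer astrocytes and less RNA per astrocyte cannot be told apart in such tissue RNA. P-values weigh a difference against the spread between animals of a group, with both sides of a mouse taken as independent. Where mouse was a block, and where changes were compared between the sets, the spread was that of changes within mice.

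All 10 genes were above 0 in every library, the lowest single value being 8.07 (Sox9), and all 10 passed the filter on low values in both sets. Their summed abundance ran from 3134 to 3194 on miR-181 injected sides and from 3050 to 3243 on uninjected sides. In GFP mice the sum ran from 2811 to 2921 on injected sides and from 2748 to 2816 on uninjected sides, so every GFP injected sum but 1 lay above every uninjected sum. Glul was the most abundant of the 10, at 1497.4 ± 38.4 on injected and 1493.0 ± 72.1 on uninjected sides of miR-181 mice (mean ± SD, n = 3 each). S100b and Slc1a2 followed in both sets and on both sides. Sox9 was lowest, at 14.0 ± 3.1 on injected and 11.4 ± 1.9 on uninjected sides. After Glul, S100b and Slc1a2, Aqp4 was the next most abundant on miR-181 injected sides, above Gja1. On miR-181 uninjected sides the order of these 2 genes was the reverse, with means closer together than the SD of Aqp4.

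**Figure D1:**
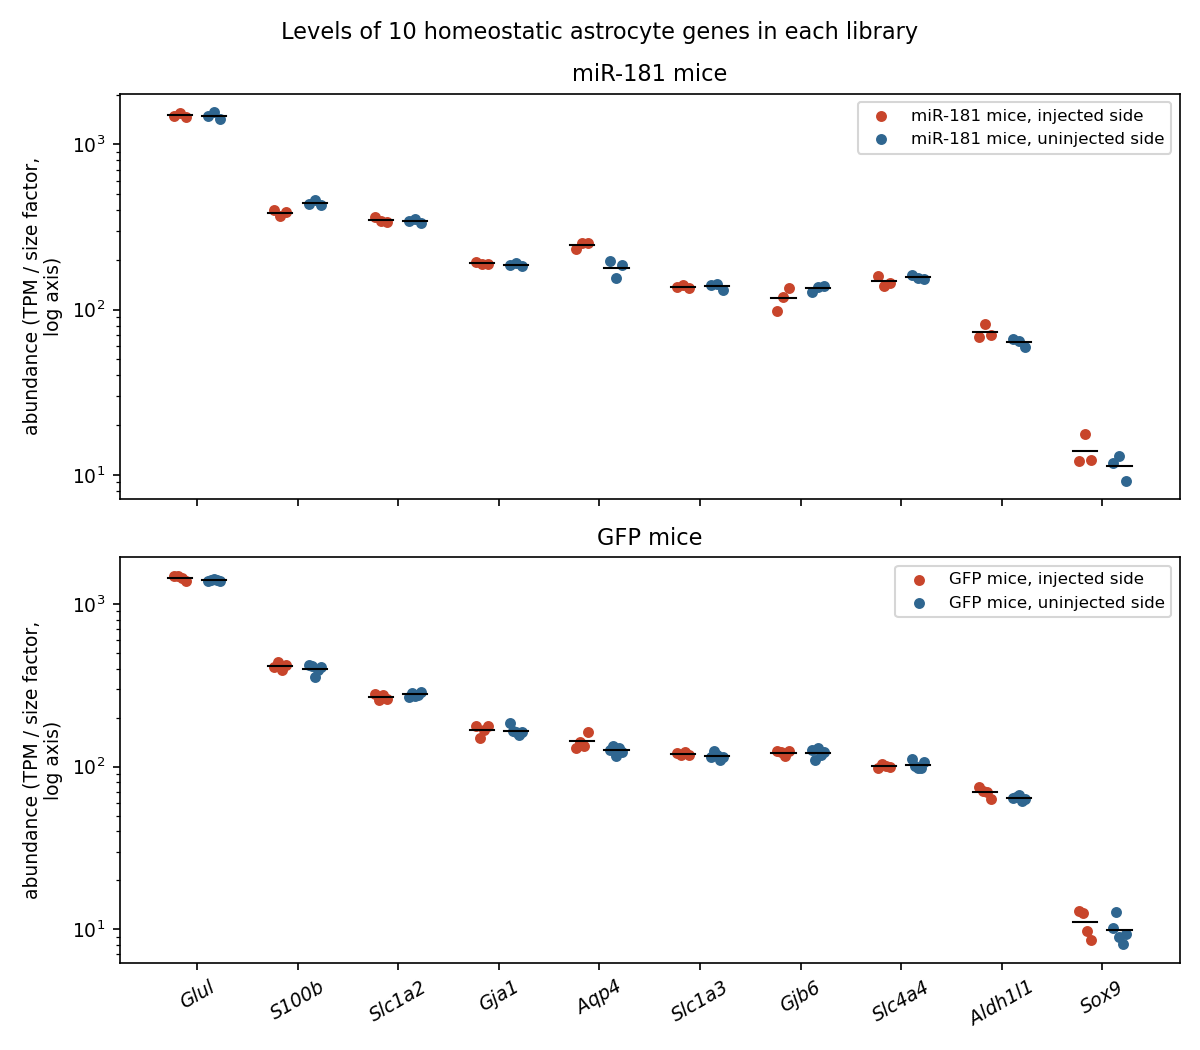
Abundance (TPM divided by a size factor, log axis) of each gene in each library, with miR-181 mice above and GFP mice below; points are libraries, injected sides in red left of uninjected sides in blue, and bars are means. Aqp4 in miR-181 mice shows the widest gap between sides on this log axis, 245.1 against 179.3 on average, while Glul, Slc1a2, Slc1a3 and Gja1 lie at nearly the same height on both sides.

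The replicates of these genes lay close together. The coefficient of variation between uninjected miR-181 libraries had a median of 4.78% over the 10 genes and ran from 2.12% for Gja1 to 17.0% for Sox9. Genes of mean abundance of at least 10 had a median of 5.01% there. In uninjected GFP libraries the median was 5.56% for the 10 genes, with Glul at 0.907% and Sox9 at 17.8%, and 6.97% for genes of at least 10.

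The first comparison asked whether these genes differed on the side given miR-181. Aqp4 rose by 37.2% and was the 1 gene of the 10 that passed the test, limma with Benjamini-Hochberg adjustment over 15453 genes at 0.05. Over all genes tested, 4.39% were called higher and 1.49% lower. For the short lists of genes described below with 0 calls in miR-181 mice, that count lies near these shares. Among the 10 genes 1 was called higher and 0 lower, with 3 at an unadjusted p under 0.05, as were 23.5% of all genes tested. Their log2 changes ran from -0.21 to 0.46 with a median of 0.01, and 6 were positive; the median over all genes tested was 0.00. In size, the median absolute log2 change was 0.138 for the 10 genes and 0.0986 for genes of mean abundance of at least 10.

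**Figure D2:**
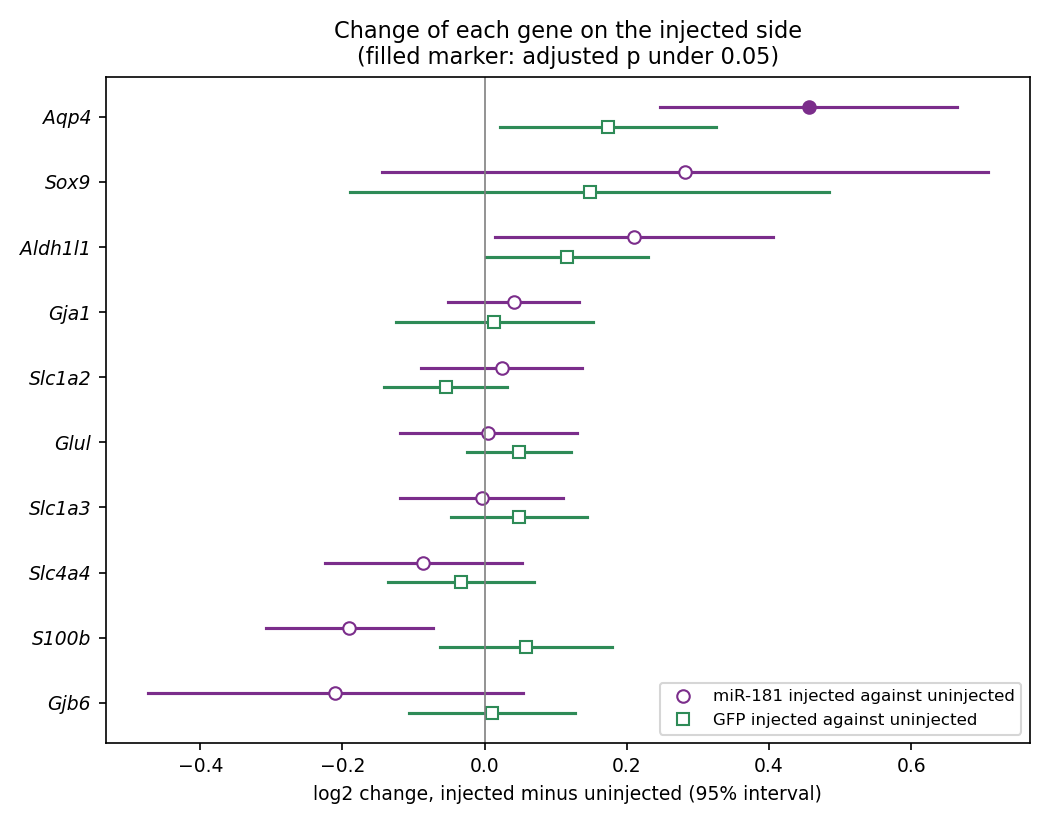
Log2 change of each gene, injected minus uninjected, with its 95% interval, in miR-181 mice (circles, upper of each pair) and GFP mice (squares); a filled marker has an adjusted p under 0.05. The only filled marker is Aqp4 in miR-181 mice, at 0.46, and the S100b interval of miR-181 mice lies wholly below 0, from -0.31 to -0.07.

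In miR-181 mice 1, 2 and 3, Aqp4 had values of 232, 252 and 252 on injected sides, against 196, 156 and 186 on their uninjected sides. Every injected value lay above every uninjected value, and Aqp4 was higher on the injected side in 3 of 3 mice. It averaged 245.1 ± 11.4 on injected and 179.3 ± 20.8 on uninjected sides (SD, n = 3 each), a log2 change of 0.46 ± 0.09 (SE; 95% interval 0.25 to 0.66; limma adjusted p = 0.034). Within mice 1, 2 and 3 the log2 change was 0.24, 0.69 and 0.44. Measured against Gja1 in the same library, Aqp4 was 1.19, 1.33 and 1.33 times as abundant on injected sides, and 1.06, 0.819 and 1.02 times on uninjected sides. The call did not hold with mouse as a block (limma adjusted p = 0.0594), with no filter on low values (0.0797) or with no intensity trend (0.0775), nor without injected mouse 2 or 3 or any 1 of the uninjected libraries (highest limma adjusted p = 0.114), nor without both libraries of mouse 2 or mouse 3 (0.127 and 0.289). Calls over all genes tested also fell in each of these fits. From 678 higher and 230 lower they went to 103 and 4 without both libraries of mouse 2, and to 1 and 0 without those of mouse 3. In the authors' deposited table Aqp4 had a coefficient of 0.453 once converted from natural log to log2, with adjusted p-values of 0.000566 by the test that matches Wald's and 0.0388 by the likelihood ratio test.

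Aqp4 protein is held at the endfoot by the dystrophin complex. Of 6 genes of that complex, 0 passed by limma in miR-181 mice, near the 4.39% called higher and 1.49% called lower of all genes tested. An unadjusted p under 0.05 was found for 0 of the 6, against 23.5% of all genes tested. Of the 6 log2 changes 5 were positive (median 0.08). Dag1, which encodes dystroglycan, had a change of 0.16 ± 0.07 (limma adjusted p = 0.217), and Dmd, which encodes dystrophin, 0.10 ± 0.06 (limma adjusted p = 0.397). Kcnj10, the endfoot potassium channel, named here after its values were seen, stood at 224, 193 and 211 on injected and 241, 233 and 243 on uninjected sides. All its injected values lay below the uninjected ones, with a log2 change of -0.19 ± 0.06 that missed the threshold (limma adjusted p = 0.117). Ependymal cells also make Aqp4. Of 7 ependymal and choroid plexus markers 6 were tested and 0 called by limma (0 at an unadjusted p under 0.05), with log2 changes from -0.25 to 0.83. Their sum ran from 18.8 to 44.5 on injected and from 18.5 to 27 on uninjected sides. Ttr, a choroid plexus marker, stood at 1.02, 23.3 and 2.81 on injected and 0.986, 5.96 and 1.74 on uninjected sides, so it was highest in mouse 2 on both sides. Aqp4 differed most between the sides of that mouse, at 252 on the injected side and 156, the lowest uninjected value, on the other. Foxj1, an ependymal factor, was at 10.9, 12.4 and 11.2 on injected and 10.7, 13.0 and 11.4 on uninjected sides. Their part in the Aqp4 values was not tested.

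S100b was lower on the injected side in 3 of 3 miR-181 mice but missed the threshold. It stood at 400, 369 and 390 on injected sides, against 433, 459 and 431 on uninjected sides. Every injected value lay below every uninjected value, and the log2 change within mice 1, 2 and 3 was -0.11, -0.32 and -0.14. The means were 386.5 ± 16.2 on injected and 441.0 ± 15.7 on uninjected sides (SD, n = 3 each). The log2 change was -0.19 ± 0.05 (SE; 95% interval -0.31 to -0.07; limma adjusted p = 0.0744). It passed without injected mouse 1 (limma adjusted p = 0.046) and with each library centred on its median (limma adjusted p = 0.0491). Lower calls over all genes tested rose in both of these fits, from 230 to 714 and 468. Over all fits without a library or mouse, the highest limma adjusted p of S100b was 0.372. In the authors' deposited table the coefficient was -0.195 in log2 units, with adjusted p-values of 0.00831 by the test that matches Wald's and 0.0542 by the likelihood ratio test. Oligodendrocytes also make S100b, and 0 of 8 oligodendrocyte markers were called by limma (0 at an unadjusted p under 0.05); their summed abundance ran from 16008 to 18314 on injected and from 16228 to 19271 on uninjected sides.

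Aldh1l1, which encodes 10-formyltetrahydrofolate dehydrogenase, stood at 68.5, 82.1 and 69.8 on injected sides, against 66.0, 64.9 and 59.1 on uninjected sides. The sides did not overlap and the injected side was higher in 3 of 3 mice, but the log2 change of 0.21 ± 0.08 did not pass (SE; 95% interval 0.02 to 0.41; limma adjusted p = 0.186). Of 8 other folate enzymes 0 passed by limma (0 at an unadjusted p under 0.05), and 7 of the 8 log2 changes were positive (median 0.16). Among them Shmt2, the mitochondrial serine hydroxymethyltransferase, had a log2 change of 0.36 ± 0.16 (limma adjusted p = 0.241).

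Of all genes tested in miR-181 mice, 16.0% had every injected value above every uninjected one and 14.5% had every injected value below. Among the 10 astrocyte genes 2 lay wholly above (Aqp4 and Aldh1l1), 1 wholly below (S100b) and 7 overlapped, shares close to this background. The share of all genes with the same direction in every mouse was not counted in either set. Counts of mice with 1 direction are thus given without a background.

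**Figure D3:**
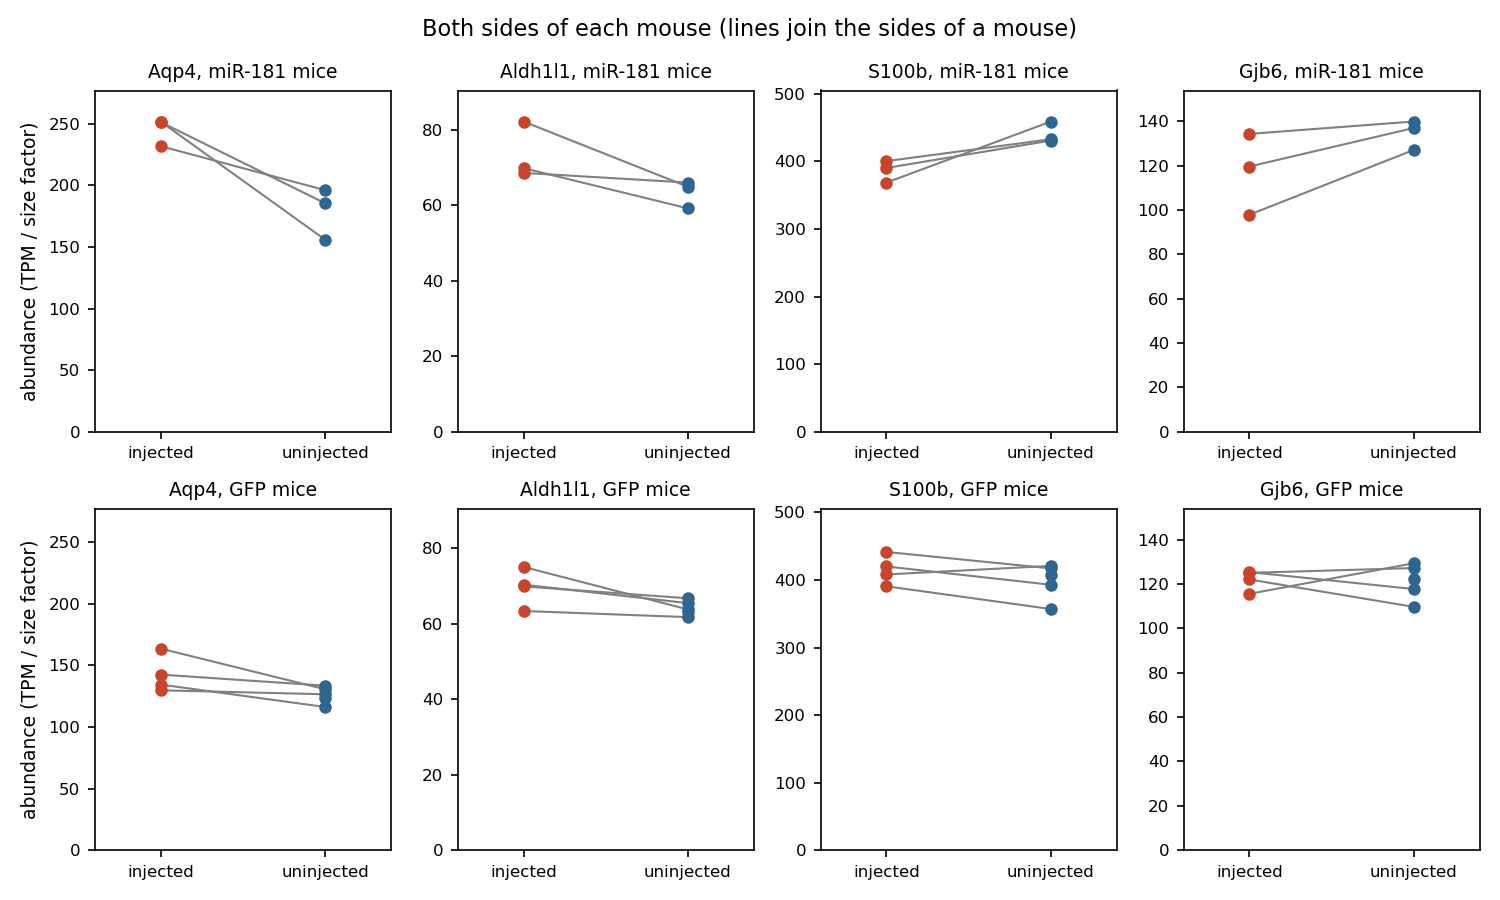
Abundance (TPM divided by a size factor) of Aqp4, Aldh1l1, S100b and Gjb6 on the injected (left, red) and uninjected (right, blue) side of each mouse, with miR-181 mice above and GFP mice below; lines join the 2 sides of a mouse, and GFP mouse 5 has an uninjected point only. In miR-181 mice all lines slope one way within each gene, with S100b and Gjb6 lower on injected sides, whereas GFP lines of S100b and Gjb6 slope both ways.

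The 3 glutamate genes had log2 changes close to 0, and none passed. Slc1a2, the main glutamate transporter of the forebrain, stood at 366, 344 and 339 on injected and 343, 355 and 333 on uninjected sides. Its log2 change was 0.02 ± 0.05 (95% interval -0.09 to 0.14; limma adjusted p = 0.809). Slc1a3 stood at 138, 140 and 135 on injected and 141, 142 and 131 on uninjected sides, a log2 change of -0.00 ± 0.05 (95% interval -0.12 to 0.11; limma adjusted p = 0.974). Glul stood at 1485, 1541 and 1467 on injected and 1484, 1569 and 1426 on uninjected sides, a log2 change of 0.01 ± 0.05 (95% interval -0.12 to 0.13; limma adjusted p = 0.971). The sides overlapped for all 3 genes, and the 3 intervals together span changes from -7.96% to 9.99%. The sign of each of these 3 changes turned under at least 1 alternative scaling or without a library. Either scaling also lowered the median over all genes tested, from 0.00 to -0.06. The ratio of Slc1a2 to Slc1a3 was 2.66, 2.45 and 2.51 on injected and 2.43, 2.49 and 2.55 on uninjected sides.

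Of 11 other genes of glutamate and glutamine handling, many of them neuronal, 0 passed by limma in miR-181 mice and 4 had an unadjusted p under 0.05. The closest was Got1, the cytosolic aspartate aminotransferase, with a log2 change of -0.23 ± 0.05 (limma adjusted p = 0.0566). Neuron markers gave 0 limma calls of 6 (3 at an unadjusted p under 0.05), and their sum ran from 3364 to 3861 on injected and from 3988 to 4120 on uninjected sides. The part of neuron content in the glutamate values was not tested.

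Neither astrocyte connexin passed. Gja1 stood at 195, 190 and 190 on injected and 185, 190 and 183 on uninjected sides, a log2 change of 0.04 ± 0.04 (95% interval -0.05 to 0.13; limma adjusted p = 0.58). Gjb6 stood at 97.8, 120 and 134 on injected and 127, 137 and 140 on uninjected sides. It was lower in 3 of 3 mice, with log2 changes of -0.38, -0.20 and -0.06, but the sides overlapped and the change of -0.21 ± 0.11 did not pass (95% interval -0.47 to 0.05; limma adjusted p = 0.312). Per library, Gjb6 was 0.503, 0.63 and 0.708 times as abundant as Gja1 on injected sides, against 0.687, 0.719 and 0.765 times on uninjected sides. Of 9 other connexin and pannexin genes 0 passed by limma (2 at an unadjusted p under 0.05); the neuronal connexin Gjd2 had the smallest p, at -0.62 ± 0.15 (limma adjusted p = 0.0657), and Panx1 was at -0.23 ± 0.09 (limma adjusted p = 0.184).

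Sox9 stood at 12.1, 17.6 and 12.2 on injected and 11.8, 13.0 and 9.22 on uninjected sides, which overlap. Sox9 was higher on the injected side in 3 of 3 mice. It had the widest interval of the 10, from -0.14 to 0.71 around a log2 change of 0.28 ± 0.18 (limma adjusted p = 0.399). Of 10 other transcription factors of astrocytes 0 passed by limma (0 at an unadjusted p under 0.05), with a median log2 change of 0.00 and a range of -0.17 to 0.16. Zbtb20 was at -0.17 ± 0.09 (limma adjusted p = 0.311), and Id3, an inhibitor of basic helix-loop-helix factors, at 0.16 ± 0.10 (limma adjusted p = 0.396). Slc4a4 stood at 159, 140 and 145 on injected and 162, 156 and 153 on uninjected sides. It was lower in 3 of 3 mice, but the sides overlapped, with a log2 change of -0.09 ± 0.06 (95% interval -0.22 to 0.05; limma adjusted p = 0.426). Of 8 other genes of pH, bicarbonate and lactate handling 0 passed by limma (1 at an unadjusted p under 0.05). The anion exchanger Slc4a3 was at -0.27 ± 0.08 (limma adjusted p = 0.119) and Slc4a10, a neuronal bicarbonate transporter, at -0.15 ± 0.08 (limma adjusted p = 0.333).

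With respect to the seed, genes with at least 1 match had a median log2 change of -0.05 in miR-181 mice, against 0.02 for genes without. In GFP mice, which received no miR-181 vector, the medians stood in the same order, at -0.02 with a match and 0.01 without. The difference between the sets was not tested. The 3 astrocyte genes with a match, Aqp4, Slc1a2 and Gja1, had changes of 0.46, 0.02 and 0.04. The 7 genes without ran from -0.21 to 0.28.

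The second comparison asked what injection of the GFP vector did to the same genes. None of the 10 passed in GFP mice by limma (2 at an unadjusted p under 0.05, Aqp4 and Aldh1l1, as were 9.52% of all genes tested), and the authors' deposited table also has 0 of 10 under 0.05 by either test. Of all 15274 genes tested, 1.35% were called in either direction. The log2 changes ran from -0.05 to 0.17 with a median of 0.05, and 8 of 10 were positive; over all genes tested the median was 0.00. Without both libraries of mouse 1, the count stayed at 0. All 10 genes overlapped between sides, where 3.29% of all genes lay wholly above and 1.00% wholly below.

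In GFP mice 1 to 4, Aqp4 had values of 130, 143, 135 and 164 on injected sides, against 127, 134, 116, 131 and 124 on the uninjected sides of mice 1 to 5. It was higher on the injected side in 4 of 4 mice, by 0.04, 0.09, 0.21 and 0.32 log2 units. The means were 142.7 ± 15 on injected sides (SD, n = 4) and 126.1 ± 6.7 on uninjected sides (SD, n = 5), a log2 change of 0.17 ± 0.07 (SE; 95% interval 0.02 to 0.32; limma adjusted p = 0.435). Aldh1l1 stood at 75.0, 70.3, 69.9 and 63.3 on injected and 63.7, 65.4, 66.7, 61.7 and 63.0 on uninjected sides, and was also higher in 4 of 4 mice. Its log2 change was 0.12 ± 0.05 (95% interval 0.00 to 0.23; limma adjusted p = 0.513).

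S100b stood at 408, 441, 391 and 420 on GFP injected and 421, 417, 357, 393 and 407 on uninjected sides, a log2 change of 0.06 ± 0.05 (limma adjusted p = 0.788). Oligodendrocyte markers gave 0 limma calls of 8 in GFP mice, with a median log2 change of 0.14. Of the 8, 5 had an unadjusted p under 0.05, against 9.52% of all genes tested. Their sums ran from 17532 to 21228 on injected and from 17577 to 18355 on uninjected sides. The part of these markers in the S100b values was not tested. Gjb6 averaged 122.0 ± 4.5 on injected and 121.3 ± 7.9 on uninjected sides (SD, n = 4 injected and 5 uninjected), a log2 change of 0.01 ± 0.05. Gja1 averaged 168.2 ± 13.3 on injected and 166.5 ± 10.4 on uninjected sides, a log2 change of 0.01 ± 0.06. The sign of both changes turned with either other scaling. The median over all genes tested fell too, to -0.02 with quantile normalization and -0.01 with median centring. Slc1a2 stood at 279, 255, 276 and 259 on injected and 269, 283, 272, 275 and 289 on uninjected sides, with a change of -0.05 ± 0.04 (limma adjusted p = 0.715). Glul averaged 1450.4 ± 54.3 on injected and 1401.5 ± 12.7 on uninjected sides, and Slc1a3 averaged 120.3 ± 2.5 on injected and 116.4 ± 6.0 on uninjected sides, each with a log2 change of 0.05. Slc4a4 averaged 100.4 ± 2.0 on injected and 102.9 ± 6.0 on uninjected sides, a log2 change of -0.03 ± 0.05. Sox9 averaged 11.01 ± 2.15 on injected and 9.86 ± 1.76 on uninjected sides, a log2 change of 0.15 ± 0.15. Among these 8 genes the lowest limma adjusted p was 0.699, for Glul. The lists of endfoot, glutamate, folate, connexin, transcription factor and pH genes also gave 0 limma calls in GFP mice, where 1.35% of all genes tested were called. Of their genes 2 had an unadjusted p under 0.05, among them Id3 with a log2 change of 0.33 ± 0.12 (limma adjusted p = 0.336).

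The third comparison took the log2 change between the sides of each mouse and set 3 miR-181 mice against 4 GFP mice. None of the 10 genes passed by limma (3 at an unadjusted p under 0.05: S100b, Aqp4 and Gjb6, as were 15.3% of all genes tested), and 0.0337% of 14824 genes were called in either direction. S100b had the smallest p: its changes of -0.11, -0.32 and -0.14 in miR-181 mice all lay below the -0.04, 0.08, 0.13 and 0.10 of GFP mice. The difference was -0.26 ± 0.07 (SE; 95% interval -0.41 to -0.10; limma adjusted p = 0.153). The share of all genes tested whose changes did not overlap between the sets was not counted. Of 8 oligodendrocyte markers 0 were called by limma here (3 at an unadjusted p under 0.05), but all 8 differences were negative, from -0.209 to -0.125. Their part in the S100b difference was not tested. For Aqp4 the difference was 0.29 ± 0.11 (95% interval 0.04 to 0.54; limma adjusted p = 0.276), with the changes of both sets overlapping. For Gjb6 it was -0.22 ± 0.10 (95% interval -0.45 to -0.00; limma adjusted p = 0.326). For the other 7 genes the differences ran from -0.07 to 0.15. A rise of Aqp4 on miR-181 sides is thus not shown to be larger than that on GFP sides.

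Other genes that astrocytes express gave a similar picture, with most near 0. Of 30 other astrocyte genes, 4 were called higher in miR-181 mice and 0 lower, against 4.39% and 1.49% of all genes tested. An unadjusted p under 0.05 was found for 8, as for 23.5% of all genes. The median log2 change was -0.00, and 18 of the 30 changes were negative. Between sides 6 lay wholly above and 4 wholly below, against 16.0% and 14.5% of all genes. Apoe, the lipid carrier of astrocytes and microglia, stood at 4092, 4626 and 4691 on injected and 3493, 3435 and 3197 on uninjected sides (log2 change 0.40 ± 0.07; limma adjusted p = 0.0285). Prdx6, a peroxiredoxin, was at 0.33 ± 0.06 (limma adjusted p = 0.029). Clu, a secreted chaperone, was at 0.41 ± 0.08 (limma adjusted p = 0.0391), and Mertk, a receptor for engulfment that microglia share, at 0.45 ± 0.10 (limma adjusted p = 0.0486). These 2 are named as the rest of the 4 calls. All 4 lost their call in the same fits as Aqp4, without injected mouse 2 or 3 or any 1 of the uninjected libraries, which left 0 calls. There were also 0 calls with no filter on low values, with no intensity trend, and without both libraries of mouse 2 or of mouse 3. In all these fits calls over all genes tested fell too. Without both libraries of mouse 1, and with median centring, 1 call was left, Apoe. With mouse as a block 2 of the 4 passed, and Apoe and Mertk did not (limma adjusted p = 0.0549 and 0.0828). Mertk also missed with a pseudocount of 1 and with quantile normalization (limma adjusted p = 0.0516 and 0.0656). In GFP mice 1 of 29 was called higher: Clu, at 1216, 1326, 1178 and 1156 on injected and 1038, 1050, 1014, 961 and 991 on uninjected sides (log2 change 0.27 ± 0.05; limma adjusted p = 0.0195). Leaving out uninjected mouse 3, 4 or 5, or injected mouse 1, ended that call (highest limma adjusted p = 0.0631), as did fitting no intensity trend (0.0593) or leaving out both libraries of mouse 1, 3 or 4 (highest 0.0904). Each of these fits also had fewer calls over all genes tested.

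Genes of reactive astrocytes, which astrocytes switch on after injury, had larger changes in both sets. Of 16 tested, 9 were called higher in miR-181 mice (median log2 change 0.89) and 5 in GFP mice (median 0.58), and 0 were called lower in either. Over all genes tested, 4.39% were called higher in miR-181 mice, and 1.35% were called in either direction in GFP mice. When the changes of the sets were compared, 0 of the 16 were called by limma. An unadjusted p under 0.05 was found there for 2, against 15.3% of all genes tested. A larger rise of these genes with miR-181 than with GFP is thus not shown. C3, a complement component that reactive astrocytes and microglia make, stood at 29.6, 59.3 and 38.1 on miR-181 injected and 3.07, 2.28 and 2.08 on uninjected sides (log2 change 3.80 ± 0.25; limma adjusted p = 0.00225). Serpina3n, a protease inhibitor, stood at 128, 180 and 101 on injected and 23.8, 25.8 and 24.3 on uninjected sides (2.41 ± 0.19; limma adjusted p = 0.0027). Both passed whichever single library was left out, but neither passed without both libraries of mouse 3 (limma adjusted p = 0.0865 for C3 and 0.058 for Serpina3n). The count of 9 fell to 0 without both libraries of mouse 3, to 2 without those of mouse 2, to 4 with no filter on low values, and to between 3 and 5 without injected mouse 3 or any 1 of the uninjected libraries. Over all genes tested, the 678 higher calls became 1 without mouse 3, 103 without mouse 2 and 268 with no filter. The loss of calls was thus not particular to this list. In GFP mice C3 stood at 10.9, 16.5, 8.18 and 18.3 on injected and 4.09, 2.80, 2.78, 1.35 and 1.71 on uninjected sides (2.20 ± 0.30; limma adjusted p = 0.0058, but 0.071 with mouse as a block and 0.0607 without both libraries of mouse 2). The count of 5 fell to 2 with mouse as a block, no filter or no intensity trend, to 3, 0 and 1 without both libraries of mouse 1, 2 and 4, to 3 without uninjected mouse 4, and to 2 without any 1 of uninjected mice 2, 3 and 5 and injected mice 2 and 4. The 204 higher calls over all genes tested in GFP mice became 62 without both libraries of mouse 2 and 71 without those of mouse 4. Gfap, the astrocyte filament, was 2.89, 3.99 and 3.06 times as abundant as Aqp4 on miR-181 injected sides and 2.33, 2.72 and 1.93 times on uninjected sides. In GFP mice the ratio was 3.45, 3.97, 2.66 and 3.09 on injected and 2.77, 2.25, 1.9, 1.94 and 1.64 on uninjected sides.

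**Figure D4:**
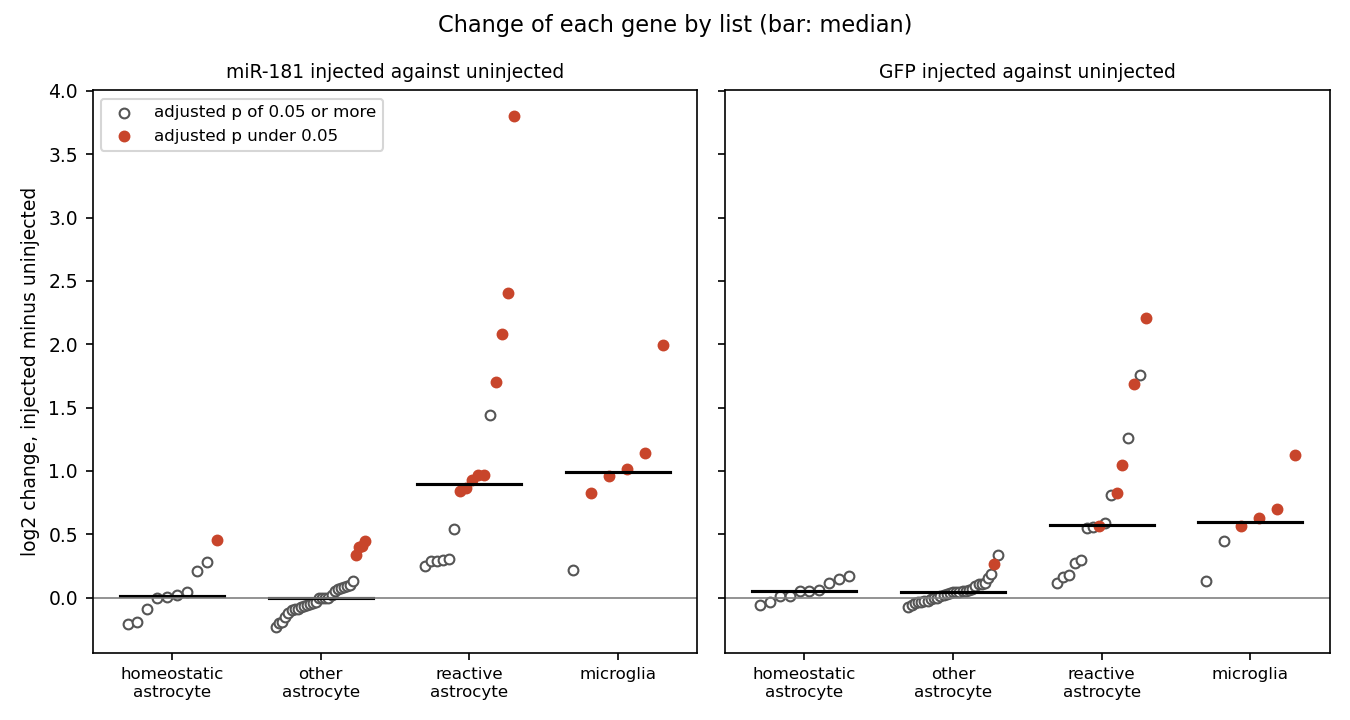
Log2 change of each gene, injected minus uninjected, by list (homeostatic, other and reactive astrocyte genes, and microglia markers), in miR-181 mice on the left and GFP mice on the right; red points have an adjusted p under 0.05 and bars are list medians. The bars of the homeostatic genes lie at 0.01 and 0.05, those of the reactive genes at 0.89 and 0.58.

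Microglia markers moved with the same sides. In miR-181 mice 5 of 6 were called higher (1 or 2 without an uninjected library of mouse 1, 2 or 3, and 3 and 0 without both libraries of mouse 2 and mouse 3), and their summed abundance ran from 509 to 710 on injected and from 289 to 309 on uninjected sides. In GFP mice 4 of 6 were called higher (1, 2 and 2 without both libraries of mouse 2, 3 and 4), with sums of 336 to 408 on injected and 210 to 275 on uninjected sides. Calls over all genes tested also fell in these fits without libraries. With all libraries, 4.39% of all genes tested were called higher in miR-181 mice and 1.35% in either direction in GFP mice. When the changes of the sets were compared, 0 of the 6 were called by limma (4 at an unadjusted p under 0.05, against 15.3% of all genes tested). None of the 6 markers was at 0 in any library. Endothelial markers gave 0 limma calls of 5 (0 at an unadjusted p under 0.05), with sums of 265 to 347 on miR-181 injected and 247 to 290 on uninjected sides. The part of these cell contents in the astrocyte values was not tested.

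Among 11757 genes outside the 10, those whose abundance followed the mean log2 level of the 10 most closely were Hspa2, Spg21, Abhd4, Rpl13a and R3hdm4. Hspa2, a heat shock protein of the HSP70 family, had a Pearson r of 0.982 over the 6 miR-181 libraries and 0.969 over the 9 GFP libraries. The lower of the 2 values was 0.924, 0.92, 0.912 and 0.91 for the other 4. These are descriptions. All genes of a library share its scaling factor, and both sides of a mouse share an animal.

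On GRCm38 the genes lie on 9 chromosomes, with Gja1 and S100b both on chromosome 10. S100b (ENSMUSG00000033208) spans 76253853 to 76261159 there on the plus strand, and Aldh1l1 (ENSMUSG00000030088) spans 90486427 to 90600203 on chromosome 6. All 10 are annotated as protein-coding in GENCODE M21.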

How the data were processed

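PolyA RNA was sequenced with strand kept, as 75-base pairs for miR-181 mice and 50-base pairs for GFP mice, per the labels' protocols. The authors used kallisto 0.43.1, sleuth 0.30.0 and GRCm38, per the submitters' processing notes. The deposited values are a signal, taken here as TPM over a size factor per library; this was inferred from library sums of 970505 to 1040288, and the planned test had assumed TPM-like values. Depth per library is unknown. The deposited coefficients were read as natural log values. The deposited p-values match a Wald and a likelihood ratio test, recomputed to within 0.00483 of their size. Values were given in 36660 of 56305 rows, and 395 repeated rows were left out.

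Values were compared as log2(value + 0.5), which understates changes of low genes, with limma 3.58.1 (R 4.3.3) and an intensity trend. Genes needed a mean of 1, and p-values were adjusted by Benjamini-Hochberg, with a threshold of 0.05. The fits were tested on simulated data. Both sides of a mouse come from 1 animal per the labels. Deviations from the group mean correlated between sides: in miR-181 mice at 0.183, 0.14 and 0.257, and in GFP mice at 0.192, 0.0947, 0.0177 and 0.122. Mouse as a block was an alternative. The other alternatives were pseudocounts, filters, scalings, no trend, and leaving out libraries or mice; those for genes outside the 10 were added after the data were seen.

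Members, lists and tests were chosen with earlier results of these data known. Named from each of the other 16 lists, as a pool to draw from, were the 2 genes with the smallest p in the miR-181 and in the GFP comparison; those described were selected after their values were seen, and some are not reported here. Also named were the 5 genes most like the mean of the 10, among genes with a mean of at least 5. Sequences come from RefSeq and GENCODE M21. Oligodendrocyte precursor, dopamine neuron, ependymal and pituitary lists gave 0 calls in each comparison. Python 3.11.15, pandas 2.3.3, numpy 2.4.6, scipy 1.17.1 and matplotlib 3.10.9 were used.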

Additional observations from a re-analysis of the deposited data

Results flagged for a closer look

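The log2 change of Slc4a4 in GFP mouse 1 was -0.175, from abundances of 98.4 (injected) and 111 (uninjected), while the other 3 GFP mice lay at 0.0257, 0.0483 and 0.0241. Its gap to the nearest mouse was 0.892 of the range, above Dixon's limit for 4 samples. It was the 1 flag among 30 groups of values examined for the 10 genes, where chance flags about 1 in 20. GFP mouse 1 is also the animal with pituitary hormone RNA, and the part of that RNA in the Slc4a4 value was not tested. Without both libraries of this mouse the GFP change of Slc4a4 was 0.00 (limma adjusted p = 0.984).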

How the results depend on the processing

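Of the 10 genes, the count called in miR-181 mice was 1. It was 0 with no filter on low values, no intensity trend or mouse as a replicate block, 2 with median centring, and between 0 and 2 without single libraries or mice. With median centring, lower calls over all genes tested rose from 230 to 468. The count of the 10 was less variable in the other comparisons. It stayed 0 in GFP mice and for the difference under every alternative run, including the fit without the mouse block. Aqp4 passed under 5 of 8 other settings, with adjusted p of 0.0797, 0.0775 and 0.0594 where it did not (no filter, no trend, block), and under 1 of 6 fits without a library. Without a library or mouse its log2 change ran from 0.34 to 0.56. The pairing of sides changed no other call of the 10 genes. Changes near 0 turned sign. With quantile normalization Slc1a2 and Glul stood at -0.0057 and -0.0737 in miR-181 mice, and Glul, Gja1 and Gjb6 at -0.0163, -0.0162 and -0.0132 in GFP mice. With median centring Slc1a2, Glul and Gja1 stood at -0.0412, -0.0602 and -0.0244 in miR-181 mice, Gja1 and Gjb6 at -0.0035 and -0.0064 in GFP mice, and Gja1 at -0.0046 for the difference. Without a library or mouse, changes in miR-181 mice ran from -0.01 to 0.059 (Slc1a2), -0.0438 to 0.0186 (Slc1a3) and -0.0276 to 0.0415 (Glul). In GFP mice they ran from -0.0315 to 0.0693 (Gja1), -0.0249 to 0.0604 (Gjb6) and -0.0544 to 0.0046 (Slc4a4), and the difference for Gja1 from -0.0193 to 0.086. The median of the 10 was -0.05 with median centring in miR-181 mice and -0.01 with quantile normalization in GFP mice. These scalings also moved the median over all genes tested, which was 0.00 in both sets without them. With median centring it was -0.0616 in miR-181 mice and -0.0126 in GFP mice. With quantile normalization it was -0.0567 in miR-181 mice and -0.0236 in GFP mice. Over alternatives, calls among the other astrocyte genes of miR-181 mice ran from 0 to 6 and among reactive genes from 0 to 11 (4 with no filter and, with fewer genes tested, 4 at a mean of at least 5). The causes were not tested. Unknown depth and 3 to 5 animals per group limit all values.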
